A study of Mus musculus with 3143 samples.

Results

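The genes described here are 10 members of the CXC and CX3C chemokine system in cells of the mouse kidney glomerulus: the ligands Cxcl1, Cxcl2, Cxcl9, Cxcl10, Cxcl12, Cxcl16 and Cx3cl1, and the receptors Cx3cr1, Cxcr4 and Cxcr6. They were taken by symbol from the 46517 gene names of the raw read count table, and all 10 were found. Levels were followed in the cells that could send the ligands and in those that could receive them, in a group labelled IgAN and a group labelled Control. The series concerns IgA nephropathy, a kidney disease named for its deposits of IgA in the glomerulus.

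Chemokines are small secreted proteins that bind G protein-coupled receptors on leukocytes and draw them toward their source. Cxcl1 and Cxcl2 act through Cxcr2, mainly on neutrophils; Cxcl9 and Cxcl10 are induced by interferon and act through Cxcr3 on T and NK cells; Cxcl12 acts through Cxcr4 and is also bound by the scavenging receptor Ackr3. Cxcl16 and Cx3cl1 are unusual in being made as membrane-bound proteins, with Cxcr6 and Cx3cr1 as their receptors, and the proteases Adam10 and Adam17 can release them. In the kidney, Cx3cr1 is known on monocytes and resident macrophages.

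Glomerular fractions of adult C57BL/6 mouse kidneys were split into single cells and put through Smart-seq2, a plate method with 1 sorted cell in each well that covers transcripts along their length. Cells had been released by enzymes and sorted as positive for a dye of living cells. The IgAN group has 1798 cells, from plates 313, 315, 316, 318, 322 and 325; the Control group has 1345, from plates 314, 317, 321 and 326. The strain, age, tissue and handling given in the labels are the same in both groups, which differ in the treatment label alone. The labels do not say how IgAN was brought about and name no animal. Each group was therefore treated as 1 sample, no test was run, and each value is set beside its range over plates. Each plate held cells of 1 group, which means that a plate effect and a group difference cannot be told apart. Depth was 50365 to 1135415 reads per cell, with a median of 231222 in IgAN and 241543 in Control, and plate 322 was the deepest.

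Cells were clustered without the members, and clusters were named from marker genes as endothelial-like (994 IgAN and 613 Control cells), mesangial-like (117 and 51), podocyte-like (39 and 146), parietal epithelial-like (49 and 24), smooth muscle or renin-like (21 and 11), proximal tubule-like (144 and 85), distal tubule or collecting duct-like (74 and 46), monocyte, macrophage or dendritic-like (191 and 103), T or NK-like (93 and 128), B or plasma-like (26 and 117) and neutrophil-like (8 and 12). A further 42 IgAN and 9 Control cells took no name and entered no class. The 13 endothelial markers summed to 21496 and 22040 CPM (reads of a gene per 1e6 reads of the same cells) in the endothelial-like class, IgAN first. The fraction named in the labels thus held glomerular cells, and tubule cells and leukocytes beside them. Levels are reads summed over the cells of a class, as CPM, with an exact Poisson interval at 95% that covers counting error only. A difference is log2 of IgAN over Control, after 1 CPM was added to each. A gene counted as measured in a class at 10 CPM or more, in at least 10% of cells (before thinning), in at least 1 of the groups. A measured gene met the size rule when this log2 was at least 1 in either direction and the plate ranges of the groups were apart; a plate entered its range if 10 or more of its cells were in the class. "Higher" and "lower", used as a call, stand for this rule. Shares of cells with a read were counted after each cell was thinned to 50000 reads.

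The classes differed in the members they held. Cx3cl1 was highest in endothelial-like and Cxcl12 in parietal epithelial-like cells. In IgAN, Cxcl1 was highest in smooth muscle or renin- and mesangial-like cells (254 and 241 CPM). In Control it was highest in parietal epithelial-like cells (243, from few cells, against 60.2 in IgAN), then in mesangial-like cells (198). The 3 receptors were highest in leukocytes, as was Cxcl2, so neutrophil-like cells held a ligand (Cxcl2) and a receptor (Cxcr4), and endothelial-like cells held Cxcr4 beside 6 ligands. In endothelial-like cells Cx3cl1 was at 715.5 CPM in IgAN (712.3 to 718.8) and 392.5 in Control (389.6 to 395.5). In Control it followed in distal tubule or collecting duct-like cells (188 CPM), mesangial-like cells (117) and parietal epithelial-like cells (78.0), and the endothelial plates (299 to 548) lay above those of both neighbours (169 to 242 and 16.1 to 163). Cxcl12 was highest by far in parietal epithelial-like cells, the lining of Bowman's capsule, at 1985 CPM in IgAN (1963 to 2006) and 3087 in Control (3048 to 3126). It was found in 89.8% of these cells in IgAN (77.8 to 96.6, exact binomial interval) and 91.7% in Control (73.0 to 99.0), against 15.4% and 13.4% of endothelial-like cells. The other classes held at most 109 CPM of Cxcl12. In Control, Cxcl16 was highest in monocyte, macrophage or dendritic-like cells (222 CPM, plates 66.0 to 430.4), followed by proximal tubule-like cells (111, plates 25.2 to 196), and the plates of these neighbours overlapped. In IgAN the order was the other way, with 152 CPM in proximal tubule-like and 122 in monocyte, macrophage or dendritic-like cells. Cxcl1 was at 198 CPM in mesangial-like and 80.1 in endothelial-like cells of Control, again with overlapping plates.

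**Figure D1:**
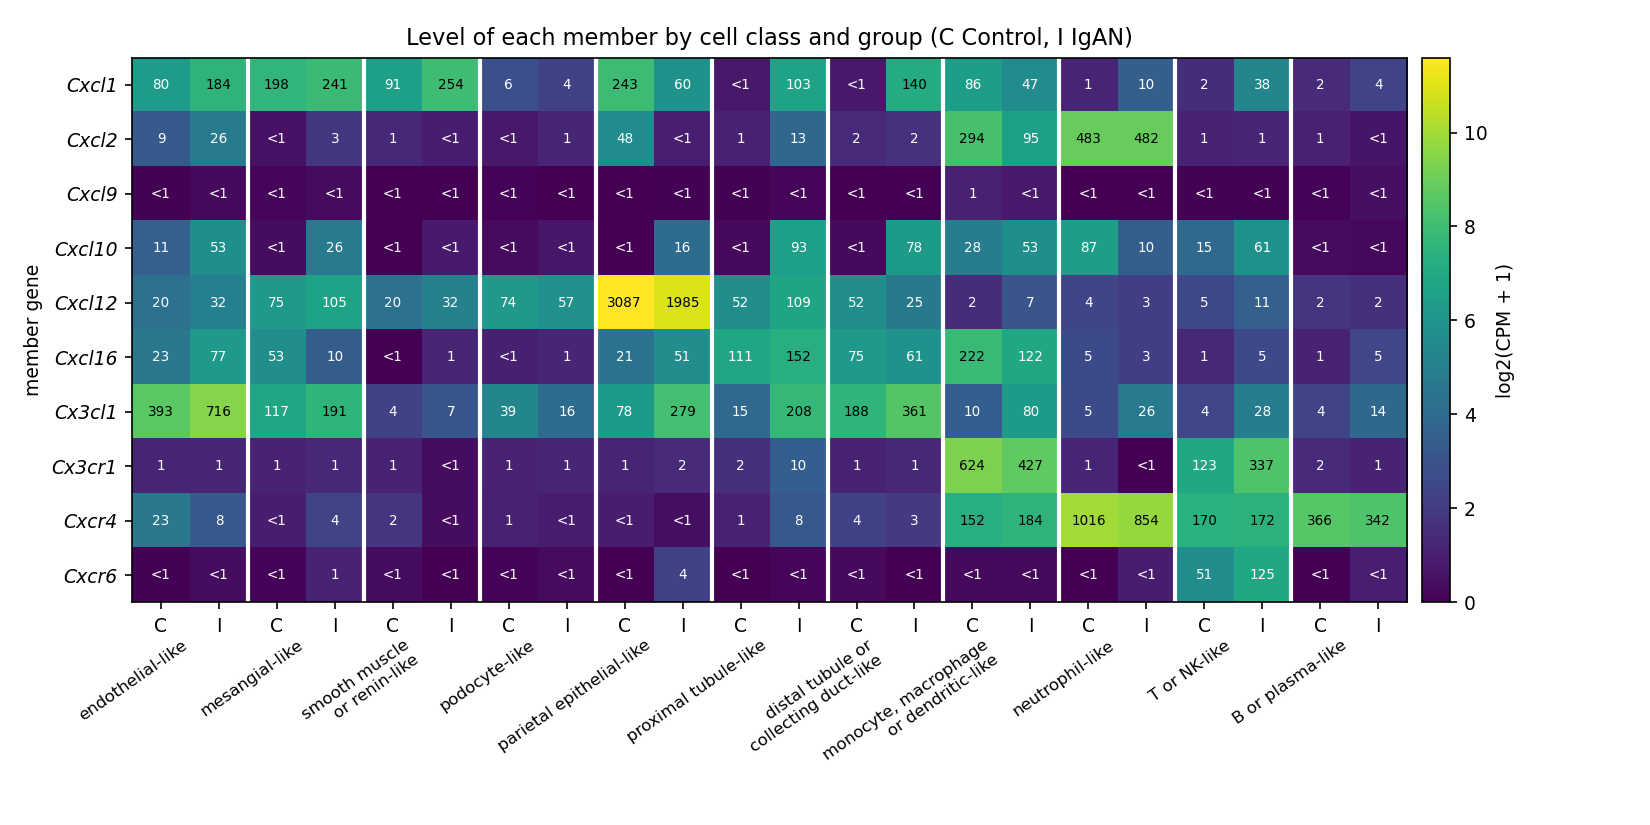
Heat map of the 10 members (rows) in 11 cell classes (columns, Control and IgAN side by side); colour is log2(CPM + 1) and the printed number is CPM. The receptors sit at the right, in leukocytes: Cxcl12 reaches 3087 CPM in parietal epithelial-like cells, Cx3cl1 715.5 CPM in endothelial-like cells and Cxcr4 1016 CPM in neutrophil-like cells, while Cxcl9 stays at or below 1.10 CPM.

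Between genes, levels were compared per kilobase of exon, as transcripts per 1e6 (TPM). In endothelial-like cells of IgAN the order was Cx3cl1 (549 TPM), Cxcl1 (296), Cxcl16 (76.5), Cxcl10 (71.1), Cxcl2 (37.4), Cxcr4 (14.0) and Cxcl12 (11.6). In Control it was Cx3cl1 (309), Cxcl1 (132), Cxcr4 (39.0), Cxcl16 (23.8), Cxcl10 (14.5), Cxcl2 (13.3) and Cxcl12 (7.56). Cxcl1 was the leading ligand of mesangial-like cells, at 402 and 333 TPM, and Cxcl12 that of parietal epithelial-like cells, at 727 and 1124 TPM. Cxcl9 was not measured in any class: 168 reads in 52 of 3143 cells, of which 43 lay in 1 cell, were all that the table held.

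Endothelial-like cells, which line the glomerular capillaries and other vessels, held 7 of the 10 members at a measured level: Cx3cl1, Cxcl1, Cxcl2, Cxcl10, Cxcl12, Cxcl16 and Cxcr4. Of these, Cxcl16 was higher in IgAN and Cxcr4 was lower, and the other 5 did not meet the size rule because their plates overlapped or the difference was under 1. All genes measured in this class met the rule in 0.785% of 9680 cases as higher and 0.744% as lower. The 6 measured ligands all had positive differences, where 51.3% of all measured genes did. Cxcl2 was under 10 CPM in Control (8.87) and so was measured through IgAN alone, which set its direction. Cxcr4 was under 10 CPM in IgAN (8.39) and so was measured through Control alone, which set its direction too. The median log2 of the 7 members was 1.19, and that of all measured genes was 0.01.

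Cxcl16, the membrane-bound ligand of Cxcr6, was at 76.6 CPM in IgAN (75.6 to 77.7) and 23.3 in Control (22.6 to 24.0), log2 1.68. The Control plates held 11.4, 36.0, 42.8 and 13.6 CPM on plates 314, 317, 321 and 326. The IgAN plates held 55.6 at the lowest, 55.8 at the median and 111 at the highest, on plate 322. Every IgAN plate lay above every Control plate, and the 4 IgAN plates other than 315 and 322 lay at 55.6 to 55.8 CPM. Reads of Cxcl16 were found in 25.3% of IgAN cells (22.6 to 28.1) and 11.7% of Control cells (9.30 to 14.6), against 7.69% and 5.98% of B or plasma-like cells, a class with little Cxcl16. The 552 exon bases that Cxcl16 shares with Zmynd15, a gene on the opposite strand, make up 18.3% of its exon length, and the strand setting of the counting is not given in the sources used here. Zmynd15 was at 18.1 CPM in IgAN and 5.15 in Control in the same cells, with plates at 11.3 to 28.7 and 2.57 to 8.25, so reads of the 2 genes cannot be told apart there.

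Cxcr4, the receptor of Cxcl12, was at 8.39 CPM in IgAN (8.04 to 8.75) and 22.8 in Control (22.1 to 23.6), log2 -1.34. The Control plates held 17.6, 15.7, 22.1 and 33.9 CPM, and the IgAN plates 3.92 at the lowest, 7.08 at the median and 15.7 at the highest. The plates did not overlap, but IgAN plate 318 (15.69) and Control plate 317 (15.74) lay side by side. Reads were found in 12.1% (10.1 to 14.3) and 24.3% (21.0 to 27.9) of cells, against 7.69% and 4.11% of podocyte-like cells. The call was lost with reads thinned before summing, with the mean of single-cell CPM, with a minimum of 50 CPM, and without Control plate 326, where log2 was -0.98.

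Cx3cl1 had the most reads of all members in these cells but a log2 of 0.86, under the rule. The Control plates held 299, 402, 548 and 401 CPM, and the IgAN plates 519.9 at the lowest, 639 at the median and 1052 at the highest. Plates 318 (519.9) and 322 (540.1) lay within the Control range and the other 4 above it. Cx3cl1 reads were present in 79.8% of IgAN (77.1 to 82.2) and 54.3% of Control endothelial-like cells (50.3 to 58.3). The share in B or plasma-like cells, which held 13.6 and 4.20 CPM, was 46.2% (26.6 to 66.6) and 18.8% (12.2 to 27.1), larger in IgAN there too. Part of each share may thus be background, which was not measured.

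Cxcl1, Cxcl2 and Cxcl10 showed the widest spread between plates. Cxcl1 was at 184 CPM in IgAN (182 to 186) and 80.1 in Control (78.7 to 81.4), log2 1.19, with Control plates at 28.0, 84.2, 31.3 and 134.7 and IgAN plates at 68.5, 202 at the median and 314. Cxcl2, its close paralog, was at 25.6 CPM (25.0 to 26.3) and 8.87 (8.43 to 9.33), log2 1.43, with Control plates at 1.17, 10.7, 7.50 and 13.7 and IgAN plates at 5.87, 26.7 at the median and 76.9. Cxcl10 was at 53.1 CPM (52.2 to 54.0) and 10.6 (10.1 to 11.1), log2 2.23, with Control plates at 0.0230, 10.1, 0.10 and 23.1 and IgAN plates at 0.707, 52.9 at the median and 141. For all 3 genes plate 322 was the lowest IgAN plate and lay within the Control range, while the other 5 lay above it. Of the Cxcl10 reads of Control, 96.6% came from 5 cells. It was found in 11.8% of IgAN cells (9.83 to 13.9) and 1.96% of Control cells (1.02 to 3.39).

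Without plate 322, 5 members met the rule in endothelial-like cells: Cxcl1 (log2 1.49), Cxcl2 (1.78), Cxcl10 (2.66) and Cxcl16 (1.42) as higher and Cxcr4 (-1.16) as lower. Of all genes measured without that plate, 0.916% were higher and 0.874% lower by the rule. Plate 322 stood apart in another way. The 12 immediate early genes, which respond within minutes to stimulation or handling, summed to 5148 CPM in its endothelial-like cells, against 21492 to 24421 on the other IgAN plates and 13890 to 20945 on the Control plates. The 16 interferon response genes summed to 1690 CPM there, within the 1236 to 1732 of the IgAN plates and above the 810 to 968 of Control. The part of the immediate early level in the results for Cxcl1, Cxcl2 and Cxcl10 was not tested.

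**Figure D2:**
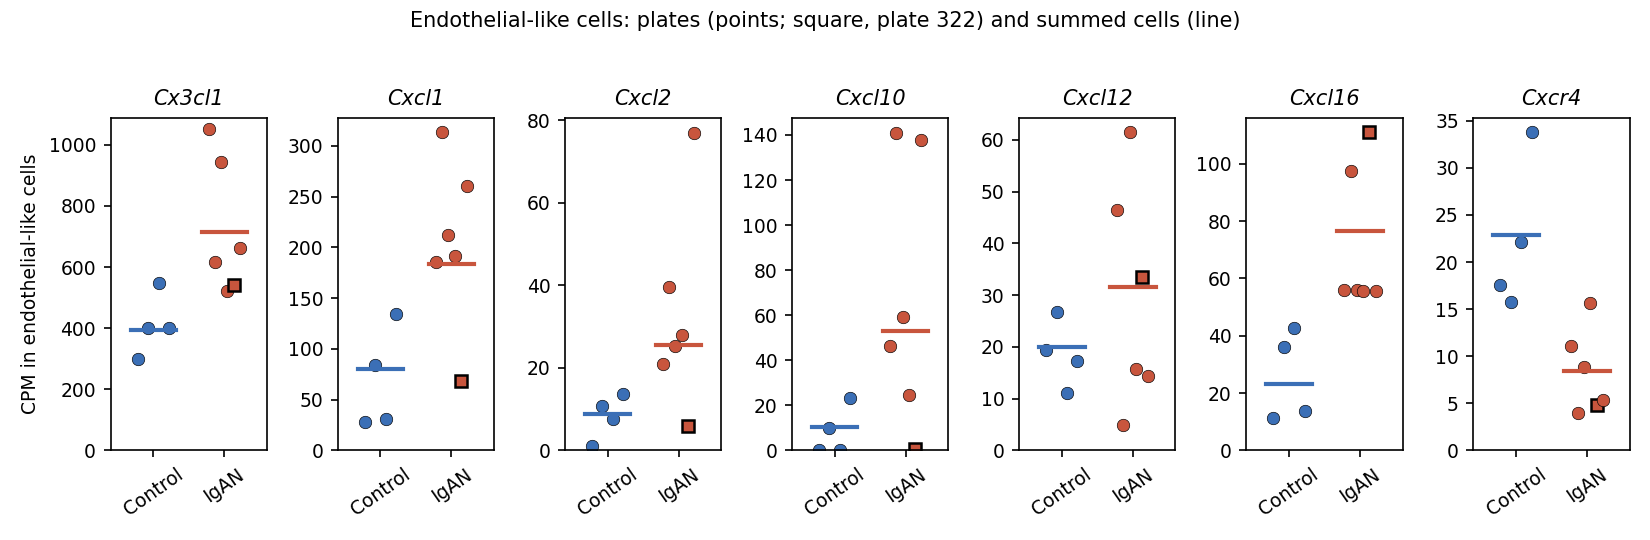
CPM of the 7 measured members in endothelial-like cells on each plate (points; the square is plate 322) and over all cells of a group (line), Control left and IgAN right, each panel on its own axis from 0. Cxcl16 plates are 11.4 to 42.8 CPM in Control and 55.6 to 111 in IgAN; for Cxcl1, Cxcl2 and Cxcl10 the square lies among the Control points.

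Cxcl12 differed little over the class as a whole, at 31.5 CPM in IgAN (30.8 to 32.2) and 20.0 in Control (19.3 to 20.7). A small set of endothelial-like cells held a large share of it. Cells with at least 2 of the elastic fibre genes Eln, Fbln5 and Ltbp4, each at 10 CPM or more, numbered 80 in IgAN and 85 in Control, and held 44.8% and 54.6% of the Cxcl12 reads of the class. Cxcl12 was at 207 and 80.2 CPM in them, log2 1.36. Elastic fibres are typical of artery walls. The plates were at 281.6, 435 and 125.8 CPM in IgAN and 65.4, 93.4 and 71.0 in Control, without overlap. The other cells with Ehd3, a marker of glomerular capillary endothelium, held 18.7 and 10.7 CPM. The gate is a cut on levels, and 276 IgAN and 177 Control cells were 1 gene short of it.

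Cx3cl1 differed more in the elastic fibre cells than over the whole class. It was at 812.5 CPM in IgAN (799 to 826) and 153 in Control (148 to 158), log2 2.41. The plates were at 1029, 894 and 439.9 CPM in IgAN and 252, 86.9 and 49.3 in Control, so the groups did not overlap. In the Ehd3 cells the values were 709 and 432 CPM, log2 0.71, with overlapping plates; whether the 2 differences differ from each other was not tested. Of all genes measured in the elastic fibre cells, 3.06% met the rule as higher and 4.41% as lower. Cxcl16 was low in these cells, at 12.0 and 10.5 CPM, and was at 81.4 and 25.7 CPM in the Ehd3 cells, log2 1.63, where it met the rule as it did over the class; there 0.889% of all genes met it as higher and 0.61% as lower.

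The groups filled different endothelial clusters, which bears on every difference within the class. Cluster 0 held 35 IgAN and 417 Control cells, with Fgf1, Dll4 and the platelet genes Itga2b, Tubb1 and Gp5 among its leading genes. Cluster 1 held 336 and 63, cluster 2 held 261 and 15, and cluster 3 held 249 and 5. On plate 322, 88.3% of endothelial-like cells were in cluster 2; plates 313 and 316 had 72.4% and 70.6% in cluster 1, and plates 315, 318 and 325 had 56.8%, 65.7% and 53.1% in cluster 3. Cluster 4, led by Fbln5, Fbln2 and Igfbp3, held 107 cells of each group, and the small cluster 22 held 6 of each. In cluster 4, Cx3cl1 was at 604 and 143 CPM, Cxcl12 at 229 and 97.1, Cxcl1 at 190.2 and 54.7, Cxcl10 at 36.8 and 0.138, and Cxcl16 at 5.30 and 6.67.

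In clusters 0 and 1, which also held cells of both groups, Cx3cl1 was again at the higher level in IgAN, with 942 against 447 CPM and 983 against 488. Cxcl16 was at 38.3 against 27.3 CPM in cluster 0 and 66.6 against 28.8 in cluster 1. Cxcl1 was at 76.4 against 93.4 CPM in cluster 0 and 225 against 63.4 in cluster 1, so its direction was not the same in both. Cluster 3, nearly all IgAN, held the highest Cxcl1 (308 CPM) and Cxcl10 (98.5) of clusters 0 to 4. Cluster 2, which held most endothelial-like cells of plate 322, had the highest Cxcl16 (119). Of the 261 IgAN cells of cluster 2, 151 came from plate 322. Cluster 3 had 67, 117 and 52 cells from plates 315, 318 and 325. Levels within these clusters were not split by plate, so the part of the plate in them was not tested.

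**Figure D3:**
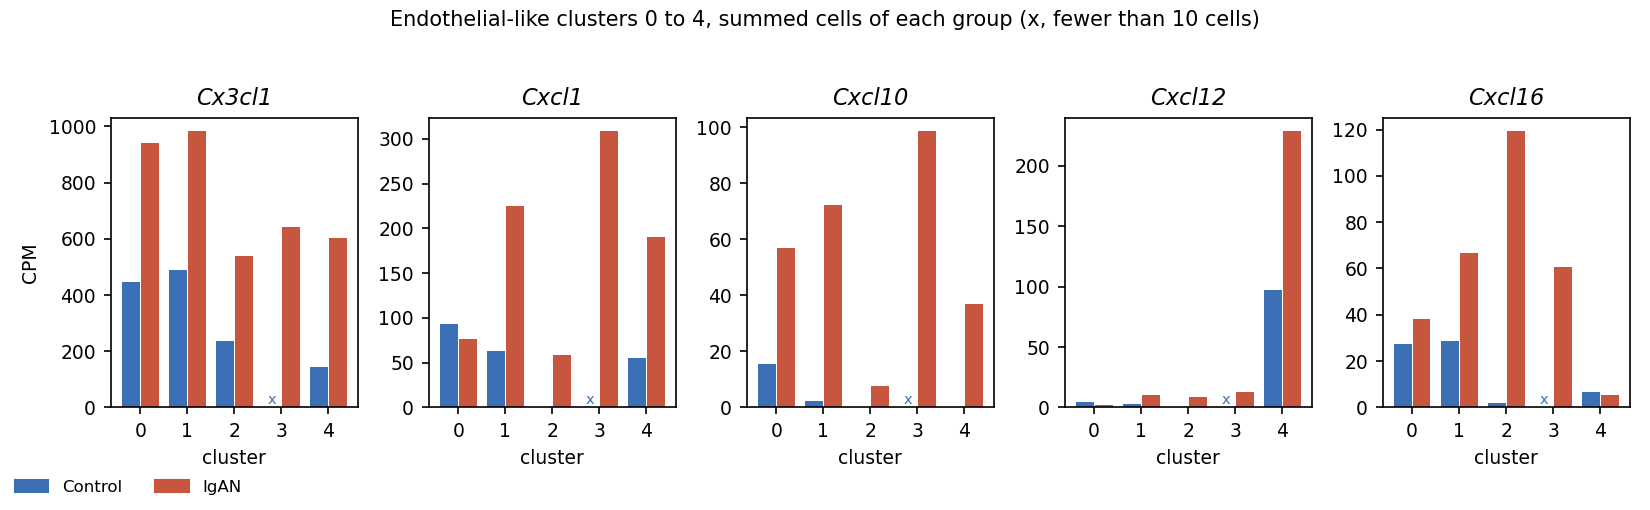
CPM of 5 ligands in endothelial-like clusters 0 to 4, summed over the cells of each group (bars from 0, Control and IgAN side by side; x marks fewer than 10 cells). Cxcl12 stands out in cluster 4, at 229 CPM in IgAN and 97.1 in Control, and Cxcl16 in cluster 2, at 119 CPM in IgAN.

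Cxcl1, Cxcl2 and Cxcl10 tended to lie in the same endothelial-like cells of IgAN. Of 88 cells with Cxcl2, 67.0% had Cxcl1 (56.2 to 76.7), against 36.5% of 906 cells without it (33.4 to 39.8), and the share was larger on each of the 6 IgAN plates. Of 117 cells with Cxcl10, 65.0% had Cxcl1 (55.6 to 73.5), against 35.8% of 877 without it, on 5 of 6 plates; on plate 322 it was 11.1% of 9 cells. Cxcl2 was found in 25.6% of cells with Cxcl10 and 6.61% of those without, on 6 of 6 plates. For Cxcl16 the share with Cxcl1 was 41.4% (35.3 to 47.8) against 38.5% (35.0 to 42.1), intervals that overlap. In Control, 45 cells had Cxcl2, 35.6% of them (21.9 to 51.2) with Cxcl1 against 20.4% (17.2 to 24.0), and the share was larger on 2 of 4 plates. Cells with Cxcl10 also had Sele, the endothelial selectin that captures leukocytes, in 56.4% of cases against 35.2%, on 5 of 6 IgAN plates. Cells of a group share plates and are not replicates, so no test was run.

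The promoters of these 3 ligands are shown because they were found in the same cells. Each line is the 250 bases that end just before the annotated start in RefSeq, 5′ to 3′ on the gene's own strand, in build GRCm38.p6: Cxcl1 is chr5:90890995-90891244 (plus strand), Cxcl2 is chr5:90903649-90903898 (plus) and Cxcl10 is chr5:92348890-92349139 (minus). Capitals mark matches to the NF-kB consensus on either strand and, in Cxcl10, also a match to the interferon response element, searched as GAAA, any 2 bases, and GAAA again.
Cxcl1: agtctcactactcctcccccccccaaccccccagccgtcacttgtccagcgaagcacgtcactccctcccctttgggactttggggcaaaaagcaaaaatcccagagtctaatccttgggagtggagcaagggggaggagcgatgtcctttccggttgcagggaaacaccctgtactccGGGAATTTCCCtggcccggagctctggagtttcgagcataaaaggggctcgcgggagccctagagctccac
Cxcl2: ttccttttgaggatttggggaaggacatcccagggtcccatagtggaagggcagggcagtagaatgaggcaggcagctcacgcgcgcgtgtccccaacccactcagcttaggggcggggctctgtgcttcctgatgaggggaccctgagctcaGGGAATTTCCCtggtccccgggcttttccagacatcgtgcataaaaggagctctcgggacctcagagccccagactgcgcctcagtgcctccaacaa
Cxcl10: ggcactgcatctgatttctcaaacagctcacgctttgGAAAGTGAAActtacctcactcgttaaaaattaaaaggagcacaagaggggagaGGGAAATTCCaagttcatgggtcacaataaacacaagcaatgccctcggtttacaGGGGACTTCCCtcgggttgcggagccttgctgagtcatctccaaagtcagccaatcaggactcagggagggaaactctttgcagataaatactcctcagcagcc

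Cxcl1 has an NF-kB match 71 to 62 bases before its start and Cxcl2 has the same 10 letters 97 to 88 bases before its own, each overlapped by a second match shifted by 1 base. Cxcl10 has NF-kB matches at 159 to 150 and 104 to 95, the latter with such an overlap, and the interferon element at 213 to 204. Promoters of the same length were in the table for 9 of the 10 members, and the other 6 (Cxcl9, Cxcl12, Cx3cl1, Cx3cr1, Cxcr4 and Cxcr6) had no match to either motif. Of 32851 promoters of this length, 7.25% held an NF-kB match and 2.98% the interferon element. The 2 elements are textbook binding sites of the factors that act downstream of inflammatory cytokines and of interferon. A match is a run of letters only, and binding was not measured.

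The members are spread over several chromosomes, with 4 of the ligands close together. In GRCm38 (GENCODE vM21), Cxcl1 (ENSMUSG00000029380.11) lies at chr5:90891241-90893115 and Cxcl2 (ENSMUSG00000058427.10) at chr5:90903871-90905938, both on the plus strand. Cxcl9 lies at chr5:92321347-92328079 and Cxcl10 (ENSMUSG00000034855.13) at chr5:92346638-92348889, both on the minus strand. Cxcl16 (ENSMUSG00000018920.11) lies at chr11:70453983-70459984, Cx3cl1 (ENSMUSG00000031778.13) at chr8:94772009-94782427 and Cxcl12 at chr6:117168535-117181367. The receptors Cx3cr1 (chr9:119901616-120069879), Cxcr6 (chr9:123806475-123811760) and Cxcr4 (chr1:128588199-128592293) lie elsewhere, and all 10 genes are protein coding. Cxcl10 shares 133 exon bases with Art3 on the opposite strand, 5.91% of its exon length.

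Mesangial-like cells, named for the cells that hold the capillary loops together, had 5 measured members and 1 that met the rule. Cxcl10 was higher in IgAN, at 26.4 CPM (24.5 to 28.4) against 0.305 (0.0832 to 0.782), log2 4.39. It was measured through IgAN alone, which set its direction. The IgAN plates held 0.623 CPM at the lowest, 5.95 at the median and 123 at the highest, and the 3 Control plates 0, 0.233 and 0.529. The call thus rests on IgAN plates 315, 316 and 325 with 10.8, 61.4 and 123 CPM, while the other 3 lay at 1.06 or below. Of all genes measured in this class, 1.29% were higher by the rule and 1.48% lower. Endothelial markers in mesangial-like cells summed to 5948 CPM in IgAN (plates 5226 to 7401) and 4956 in Control (4905 to 5209), which is 27.7% and 22.5% of their level in endothelial-like cells, and none of the 13 was at 0. Without the 56 IgAN and 16 Control cells that held at least 25% of the endothelial marker level, Cxcl10 was at 1.56 and 0.217 CPM, and the call was lost.

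The other ligands of mesangial-like cells overlapped between plates. Cxcl1 was at 241 CPM in IgAN (235 to 247) and 198 in Control (190 to 206), with 50.3% and 81.5% of its reads in 5 cells. Cx3cl1 was at 191 and 117 CPM, Cxcl12 at 105 and 74.6, and Cxcl16 at 9.56 and 52.5, the last with Control plates at 128, 34.0 and 0.264. Cxcl13, a ligand for Cxcr5 on B cells, was at 127 and 122 CPM in the same cells, and Ackr3 at 247 and 109.

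Podocyte-like cells, the epithelial cells of the filter, had 2 measured members, and only 2 IgAN plates held 10 or more of them. Cx3cl1 was lower in IgAN, at 16.2 CPM (13.9 to 18.8) against 38.9 (37.1 to 40.8), log2 -1.22, with IgAN plates at 25.2 and 9.93 and Control plates at 34.4, 37.2, 70.5 and 27.1. Here 6.35% of all measured genes were lower by the rule and 3.73% higher. Without Control plate 321 the call was lost. Endothelial markers summed to 3047 and 3852 CPM in this class, and immediate early genes to 4134 and 7049. The part of these lists in the Cx3cl1 values was not tested. Cxcl12 was at 56.9 and 73.6 CPM, and in IgAN 97.4% of its reads came from 5 cells. Ackr3, which removes Cxcl12, was at 709 and 1182 CPM in podocyte-like cells, and Dpp4, a protease that trims several CXC ligands, at 1752 and 2056; neither met the rule.

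Parietal epithelial-like cells had too few Control cells for a comparison of plates, since no Control plate held 10. Their Cxcl12 was high on each IgAN plate with 10 cells or more, at 1496, 2473 and 1532 CPM. Cx3cl1 was at 279 CPM in IgAN and 78.0 in Control, and Cxcl1 at 60.2 and 243, with 99.3% of the Control reads of Cxcl1 in 5 cells. Ackr3 was at 397 and 853 CPM.

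Tubule-like cells of IgAN held ligands that were nearly missing in Control. These comparisons were added after the values were seen. In proximal tubule-like cells Cxcl10 was higher, at 93.4 CPM (90.3 to 96.7) against 0.213, log2 6.28, with IgAN plates at 104.1, 104.7, 72.4 and 81.8 and Control plates at 0, 0.343 and 0.222. Cxcl1 was higher at 103 CPM (100.1 to 107) against 0.747, log2 5.90, and Cxcl12 at 109 against 52.4, log2 1.04. Cxcl10 and Cxcl1 were under 10 CPM in Control and so were measured through IgAN alone, which set their direction. The plates lay at 7.44 to 144 CPM against 0 to 1.89 for Cxcl1 and at 79.3 to 194 against 43.0 to 70.1 for Cxcl12. Of all genes measured in proximal tubule-like cells, 6.62% were higher by the rule and 2.21% lower. Cx3cl1 was at 208 and 14.5 CPM and Cxcl16 at 152 and 111, with overlapping plates.

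Endothelial markers and other lists also differed between the groups in proximal tubule-like cells. Among the IgAN plates, plate 316 had the lowest endothelial sum (289 CPM), and its Cxcl10 was at about the level of the next highest plate. The part of endothelial RNA in the Cxcl10 values was not tested beyond the values given here. Endothelial markers summed to 6285 CPM in proximal tubule-like cells of IgAN and 284 in Control, with plates at 289 to 11374 and 212 to 396, and 47 of 144 IgAN cells and 0 of 85 Control cells held at least 25% of the endothelial marker level. Without those cells, 97 IgAN cells held 47.1 CPM of Cxcl10 (log2 5.31), 24.2 of Cxcl1 (3.85), 149 of Cxcl12 (1.49) and 62.1 of Cx3cl1. The first 3 still met the rule, as did 4.22% of all genes as higher and 2.13% as lower, and endothelial markers then summed to 812.5 and 284 CPM.

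The markers of proximal tubule itself summed to 8024 CPM in proximal tubule-like cells of IgAN and 16049 in Control, and were lowest on plates 315 (6394) and 325 (4290). Markers of monocytes, macrophages or dendritic cells were at 623 and 100.3 CPM, of T or NK cells at 153 and 22.3, and of distal tubule or collecting duct at 509.8 and 99.7. Immediate early genes summed to 9272 and 1574 CPM. Without all cells that held 25% of the marker level of any other class, 75 IgAN and 64 Control cells remained, with Cxcl10 at 15.0 and 0.0726 CPM (log2 3.90), Cxcl1 at 24.8 and 0.799 (3.84) and Cxcl12 at 124 and 40.8 (1.59), all 3 higher by the rule. The share of all genes that met the rule in these remaining cells was not taken, so this count has no background beside it. On plate 316 the endothelial (289 CPM) and immediate early sums (872) lay within the Control ranges, the T or NK (12.4) and distal tubule sums (43.8) below them and the monocyte, macrophage or dendritic sum (195) above its range of 64.0 to 167; there Cxcl10 was at 104.7 CPM and Cxcl1 at 7.44. The part of the other lists in these calls was not tested beyond these values.

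In distal tubule or collecting duct-like cells Cxcl1 was at 140 and 0.727 CPM and Cxcl10 at 77.7 and 0.242, both higher by the rule on 3 and 2 plates, where 12.2% of all genes were. Both were measured through IgAN alone, which set their direction. Without cells that held endothelial markers they were at 13.1 and 0.746 CPM and at 1.34 and 0.248. Endothelial markers in the class summed to 7324 and 970.3 CPM, and immediate early genes to 10818 and 4438.

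**Figure D4:**
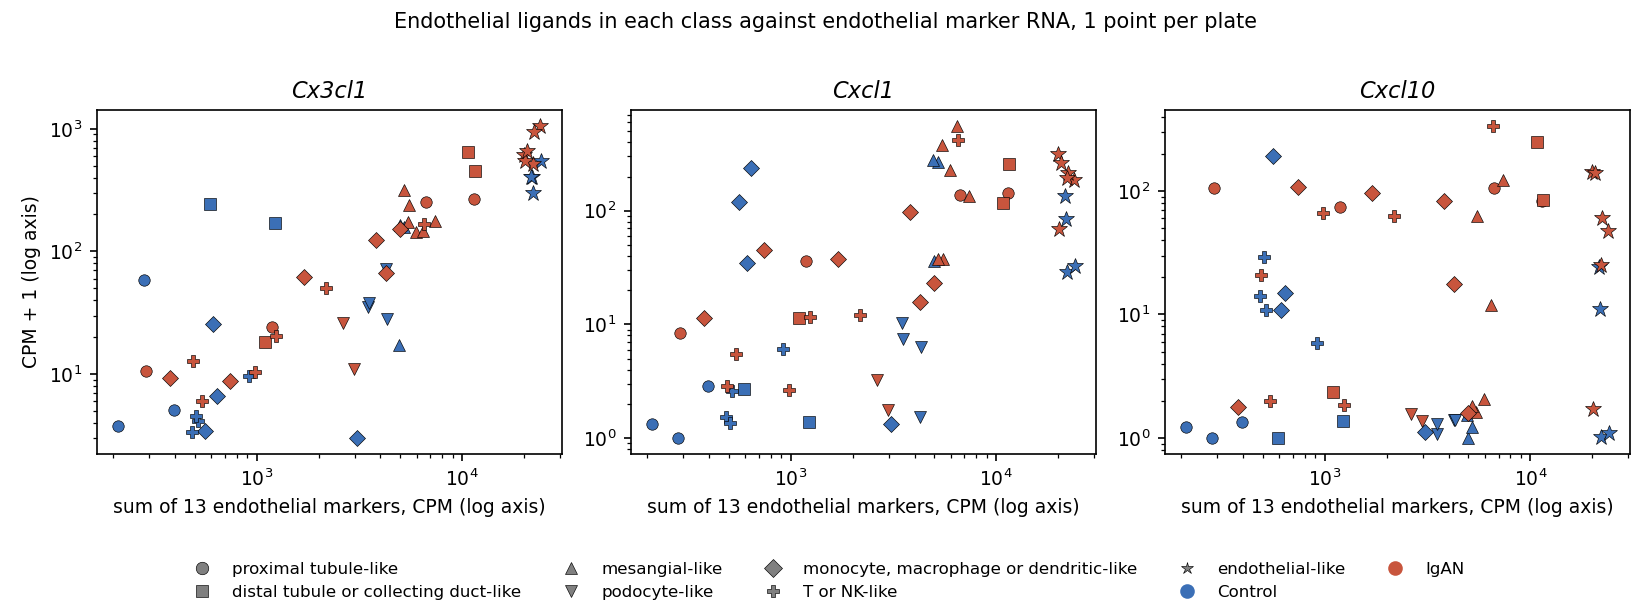
Cx3cl1, Cxcl1 and Cxcl10 as CPM + 1 (y, log axis) against the summed CPM of 13 endothelial markers (x, log axis), 1 point per plate and cell class with at least 10 cells; colour gives the group and shape the class. Cx3cl1 does not rise with the marker sum across all classes. In Control, podocyte-like cells held 38.9 CPM of it, with marker sums of 3495 to 4284 CPM on their plates. Distal tubule or collecting duct-like cells of Control held 188 CPM, with marker sums of 594 to 1233. Cxcl10 reaches 105 CPM on a proximal tubule plate of IgAN with 289 CPM of endothelial markers.

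Among possible receivers, monocyte, macrophage or dendritic-like cells had 7 measured members, and none met the rule; 0.728% of all measured genes were higher and 0.435% lower. Cx3cr1, the receptor of Cx3cl1, was at 427 CPM in IgAN (421 to 432) and 624 in Control (615 to 633), found in 51.8% and 65.0% of cells. The Control plates held 397, 567, 1324 and 660 CPM, and the IgAN plates 172 at the lowest, 390.3 at the median and 928 at the highest, so the groups overlapped. Cxcr4 was at 184 and 152 CPM, with overlapping plates. Of the ligands, Cxcl2 was at 95.2 CPM against 294, with Control plates at 138, 108, 913 and 436 and IgAN plates from 18.1 to 241, and Cxcl16 at 122 against 222. Cx3cl1 was at 79.5 and 10.1 CPM there, where endothelial markers summed to 2831 and 1370.3 CPM; without cells that held endothelial markers it was at 20.2 and 10.3.

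Gates on marker genes showed which of these cells held the receptors and ligands. Cells with at least 2 of the C1q genes, which mark tissue macrophages, had the most Cx3cr1, at 1064 CPM in 14 IgAN cells and 2434 in 7 Control cells. Cells with both Treml4 and Cd300e, markers of non-classical monocytes, followed with 491 CPM in 57 cells and 850 in 33, and cells with both Ly6c2 and Ccr2, markers of classical monocytes, with 281 in 36 and 369.9 in 26. The C1q cells also held 55.4% and 48.7% of the Cxcl16 reads of the class, at 1006 and 2243 CPM. Cxcl16 was at 160 and 587 CPM in 5 and 4 cells with Flt3 and Zbtb46, which mark dendritic cells, at 66.1 and 87.7 in classical and at 6.70 and 28.9 in non-classical monocytes. Of the Cxcl2 reads of the class the C1q cells held 28.2% and 30.8%, at 399 and 1878 CPM. Neutrophil-like cells held 482 and 483 CPM of Cxcl2 in 8 and 12 cells. These gates hold few cells, 17 cells that passed more than 1 gate were left out, 95 passed none, so the group values are given side by side only.

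**Figure D5:**
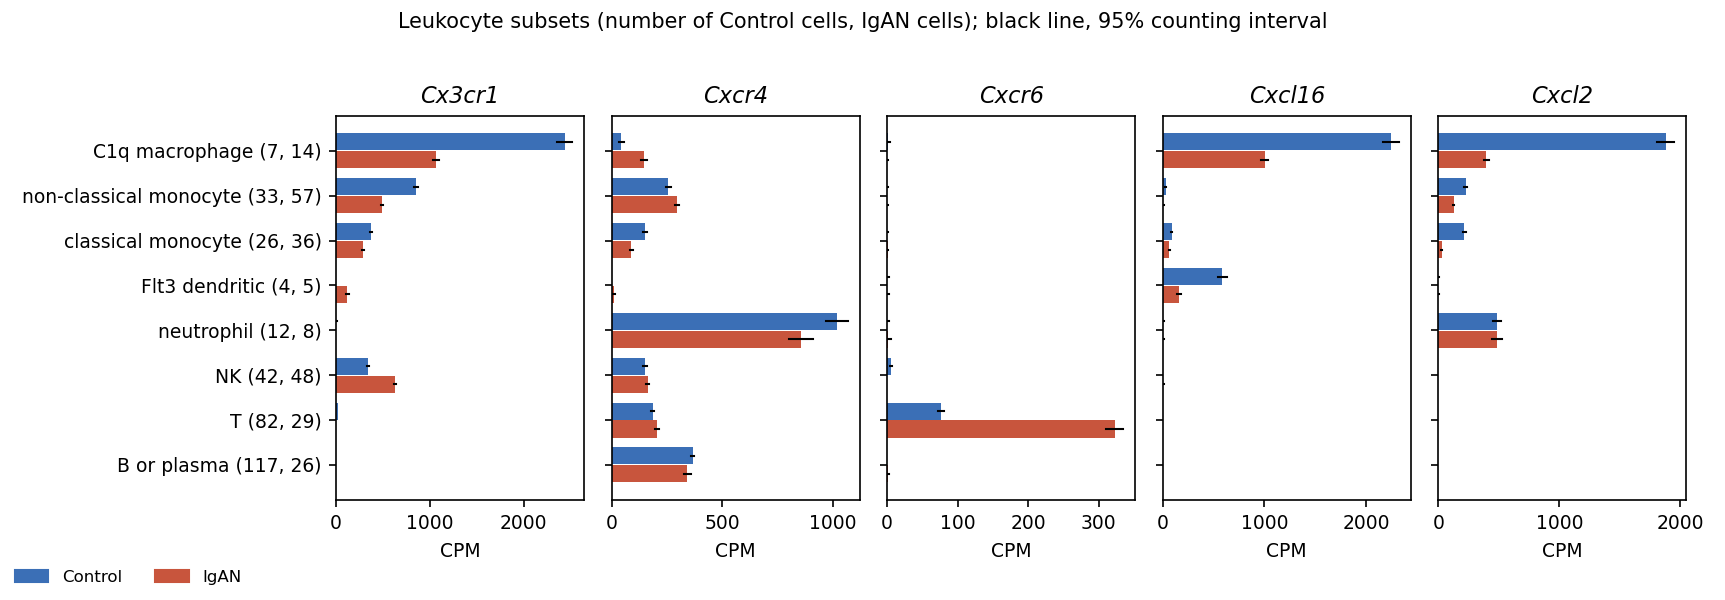
CPM of 5 members in gated leukocytes and in 2 leukocyte classes (bars from 0, Control and IgAN; black lines, 95% counting interval; cell numbers in parentheses, Control first). C1q cells reach 2434 CPM of Cx3cr1 and 2243 of Cxcl16 in Control, neutrophil-like cells 1016 of Cxcr4 and T cells of IgAN 322 of Cxcr6.

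T or NK-like cells held the other receptors. All 7 measured members had differences above 0, where 52.6% of all measured genes were above 0, but none met the rule (0.466% of all genes higher, 1.25% lower). Cxcl1 (1.86 CPM), Cxcl12 (4.77) and Cx3cl1 (4.49) were under 10 CPM in Control. They were thus measured through IgAN alone, which set their direction. Cxcr4 had a log2 of 0.01, and its direction changed under some other settings. Cx3cr1 was at 337 CPM in IgAN (329 to 345) and 123 in Control (119 to 127), log2 1.45. The Control plates held 93.4, 60.1, 179 and 134 CPM, and the IgAN plates 436, 379, 954, 428, 146 and 0.569. Plates 313, 315, 316 and 318 lay above the Control range, plate 322 within it and plate 325 below. The Cx3cr1 reads came from cells with both NK genes Ncr1 and Klrb1c, at 626 CPM in 48 IgAN cells and 337 in 42 Control cells, while cells with at least 2 Cd3 genes held 1.30 and 17.0 CPM. The latter numbered 29 in IgAN and 82 in Control. The part of this mix of cells in the class values was not tested.

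Cxcr6, the receptor of Cxcl16, was measured in T or NK-like cells alone and was at most 3.74 CPM in every other class. It was at 125 CPM in IgAN (120.0 to 129) and 50.7 in Control (48.1 to 53.3), log2 1.28, and the plates overlapped, at 0 to 256 and 20.8 to 67.2. In cells with Cd3 genes it was at 322 CPM (310 to 335) in 29 IgAN cells and 76.0 (72.0 to 80.1) in 82 Control cells, found in 24.1% (10.3 to 43.5) and 7.32% (2.73 to 15.2). Few cells carried it: 7 and 6 cells had 10 CPM or more, and 5 cells held 97.8% and 90.9% of the reads. Cells with NK genes held 0 and 5.40 CPM.

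Cxcr4 was the receptor found in the most leukocytes. It was highest in neutrophil-like cells, at 854 CPM in IgAN (801 to 909) and 1016 in Control (967 to 1067), then in B or plasma-like cells at 342 (326 to 358) and 366 (358 to 374), where it was found in 88.5% and 87.2% of cells. Monocyte, macrophage or dendritic-like cells (184 and 152 CPM) and T or NK-like cells (172 and 170.1) came next and did not differ beyond their plates. In T or NK-like cells the Control plates held 214.5, 169, 132 and 167 CPM and the IgAN plates 29.6 to 258, so the groups overlapped. The lowest of these was plate 325.

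T or NK-like cells of plate 325 held endothelial RNA: the markers summed to 6545 CPM in its 14 cells, against 492 at the lowest IgAN plate and 483 to 917 on Control plates. The ligands Cxcl1 (418.5 CPM) and Cxcl10 (334) were highest on that plate. Without it, Cxcl1 in T or NK-like cells was at 4.75 CPM in IgAN against 1.86, Cx3cr1 at 366 against 123 and Cxcr6 at 113 against 50.7, and none met the rule.

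Other genes of the same system in endothelial-like cells were counted from lists. Of 16 interferon response genes 15 were measured, all with positive differences, and 5 were higher by the rule: Isg15, a ubiquitin-like modifier (68.9 and 29.1 CPM), Rsad2, an antiviral enzyme (255 and 122), Usp18 (97.0 and 41.2), Gbp3 (84.2 and 31.9) and Zbp1 (12.5 and 1.68). Zbp1 was measured through IgAN alone, which set its direction. The median log2 of the 15 genes was 0.72, against 0.01 over all genes. Of 6 adhesion genes 5 were measured, and Icam1, the receptor of leukocyte integrins, was higher (350.4 and 146 CPM); Sele was at 179 and 81.1 and Vcam1 at 50.2 and 15.5, both with overlapping plates. Of 12 receptors and mediators of inducing cytokines 11 were measured, 8 were positive and none met the rule, with a median of 0.32. All 12 immediate early genes were measured and none met the rule, with a median of -0.05.

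Of the 3 proteases that release or trim these chemokines, Dpp4 was lower in endothelial-like cells of IgAN, at 1.84 CPM against 32.4, log2 -3.56. It was under 10 CPM in IgAN and so was measured through Control alone, which set its direction. Its IgAN plates lay at 0.919 to 2.73 and its Control plates at 5.52 to 71.9 CPM. Podocyte-like cells held the Dpp4 levels given above and were more frequent in Control. Podocyte markers in endothelial-like cells summed to 572 CPM in IgAN (plates 386 to 753) and 694 in Control (631 to 824), with overlapping plates. The part of podocyte RNA in the Dpp4 values was not tested. Nor was that of the endothelial clusters, which the groups filled differently. Adam10 (193 and 171 CPM) and Adam17 (119 and 129), which shed Cx3cl1 and Cxcl16, did not meet the rule. Of the other CXC ligands 1 of 9 was measured, the platelet gene Pf4 (1.76 and 13.4 CPM), and of the other receptors 1 of 6, Ackr3 (7.37 and 12.3). In T or NK-like cells Cxcr5, the receptor of Cxcl13, was lower (1.68 and 37.9 CPM). It was measured through Control alone, which set its direction. B or plasma markers in the same cells were at 14.4 CPM in IgAN (plates 9.48 to 25.0) and 70.3 in Control (20.4 to 113), and their part in the Cxcr5 value was not tested. Cxcr3, the receptor of Cxcl9 and Cxcl10, was at 90.2 and 141. Cells with Cd3 genes numbered 29 in IgAN and 82 in Control, and cells with NK genes 48 and 42. The part of this mix in the Cxcr5 and Cxcr3 values was not tested. Cxcr2 was at 1433 and 2591 CPM in neutrophil-like cells and Cxcr5 at 1667 and 1482 in B or plasma-like cells.

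Genes with the most similar pattern were sought by Pearson correlation of log2(CPM + 1) over 19 sums of a class and group with at least 20 cells, among 14055 genes. The highest were Gpr4 for Cxcl1 (0.93), Gda for Cxcl2 (0.97), Ada for Cxcl10 (0.89), Nfia for Cxcl12 (0.87), Adgrl2 for Cx3cl1 (0.90), S1pr5 for Cx3cr1 (0.98), Rgs14 for Cxcr4 (0.98) and the T cell receptor segment Trbv3 for Cxcr6 (0.96). For Cxcl16 it was Zmynd15 (0.97), with which it shares exon bases. The sums share plates and carried-over RNA, and these values are a description.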

How the data were processed

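The deposited table holds counts: whole numbers of reads per gene and cell, not normalized, per the labels and the values themselves. Per the submitters' processing notes, featureCounts (Subread 1.4.6-p5), TopHat2 2.1.1 and SAMtools 0.1.18 were used with GRCm38 (mm10). How strand, duplicates and low-quality cells were treated, and which annotation was used, is not given in the sources used here. There are no molecular identifiers, so reads are not independent molecules and intervals cover counting error only. All 3143 cells, each with at least 10000 reads and 500 genes, were kept; they hold 816735155 reads.

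Cells were scaled to 100000 reads, and genes found in at least 5 cells, without the members and 15 related chemokine genes, were clustered with scanpy 1.11.5 and leidenalg 0.10.2 (2000 variable genes, 30 principal components, 15 neighbours, resolution 1), which gave 23 clusters. A cluster took the class with the highest mean log2 of its markers, among 13 classes, unless its leading genes went against the name. A further condition on that mean was dropped after the first clusters were seen. The unnamed cells were a cluster led by cell cycle genes and a cluster of 25 cells, all from plate 322, led by Aqp2. Endothelial markers were the best match of both. No doublet caller was run, because wells were sorted as 1 cell; cells with markers of another class were left out as an alternative. A gate needs 10 CPM or more of each marker counted in a cell.

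The members, lists and rules were chosen with earlier results of these data known. Named genes are the members, genes of the lists that are counted, and the 3 genes most like each member, of which the highest is given. Simulated counts with known differences were used to check the code of the size rule. Alternatives were median-of-ratios scaling, 5 CPM added, no filter, a filter at 50 CPM, mean of cell CPM, thinned reads, resolutions 0.5 and 2, removal of mixed cells, and leaving out each plate; removal of cells with endothelial markers and of plates 315 and 325 together was chosen after seeing the data. Exon lengths were matched for 41961 of 46517 names. Python 3.11.15, matplotlib 3.10.9, anndata 0.12.19, scikit-learn 1.9.0, scipy 1.17.1, pandas 2.3.3 and numpy 2.4.6 were used.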

Additional observations from a re-analysis of the deposited data

Results flagged for a closer look

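Of 56 groups of 4 or 6 plates compared for a member and class, 6 held a plate far from the rest. The cut used is set to flag about 1 in 20 groups of independent, normally spread values. CPM is skewed and the groups share plates, so that rate does not apply here. In T or NK-like cells of IgAN, plate 325 stood above the other 5 plates for 4 ligands: Cxcl1 at 418.5 CPM (others 1.66 to 11.1), Cxcl10 at 333.8 (0.837 to 64.9), Cxcl12 at 106.9 (0.499 to 5.30) and Cx3cl1 at 165.5 (4.99 to 49.1). The plate holds 14 such cells, with the endothelial marker sum given above, whose part in these values was not tested. In monocyte, macrophage or dendritic-like cells of Control, Cxcl10 was at 189.7 CPM on plate 321 (15 cells; others 0.112 to 14.0) and Cx3cl1 at 24.38 CPM on plate 317 (30 cells; others 2.01 to 5.67).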

How the results depend on the processing

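In endothelial-like cells 2 members met the size rule; 1 did with a filter at 50 CPM, with the mean of cell CPM or with thinned reads, and 1 to 5 did with a plate left out (5 without plate 322, 1 without plate 326). Cxcl16 met it under each of these, with log2 1.36 to 1.69 over the other settings and 1.42 to 2.05 with a plate left out. In mesangial-like cells the 1 member became 0 with the filter at 50 CPM, the mean of cell CPM, thinned reads, and without cells that held markers of another class or endothelial markers, and 1 to 2 with a plate left out (2 without plate 326, the second being Cxcl16). In podocyte-like cells the 1 member became 0 with the filter at 50 CPM and without mixed cells, and 0 to 2 with a plate left out (0 without plate 321, 2 without plate 316). Without plate 316 the IgAN range there rested on plate 313 alone, which makes the rule easier to meet. In monocyte, macrophage or dendritic-like cells the count of 0 became 1 at resolution 0.5 and 0 to 1 with a plate left out, Cx3cl1 in each case (without plate 317). In T or NK-like cells the count of 0 became 0 to 2 with a plate left out: Cx3cl1 without plate 316, and Cxcl1 and Cx3cl1 without plate 326. Among counts with a plate left out, the share of all genes was taken only for endothelial-like cells without plate 322. The other counts are thus given without their background. Of 46 member differences, 397 of 407 values under other settings and 448 of 460 with a plate left out kept their direction. The 9 that changed direction at least once were Cxcl1 in mesangial-like and in monocyte, macrophage or dendritic-like cells (log2 0.50 without plate 326), Cxcl12, Cx3cl1 and Cxcl16 in the distal tubule or collecting duct-like class, Cxcl12 in podocyte-like and T or NK-like cells (-0.77 without plate 325), Cxcl2 in proximal tubule-like cells and Cxcr4 in T or NK-like cells. The cause was not tested, except that a filter at 50 CPM tests fewer genes. No paired analysis was possible because the labels give no replicate numbers that groups share. With 1 sample per group and reads without identifiers, depth sets the counting error but not the error between animals. A share of cells near that of B or plasma-like cells may be background, which was not measured.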
